A study of Mus musculus with 6 samples.

Results

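A set of 10 genes through which p53 is known to act on metabolism was followed in colorectal tumors with and without epithelial *Trp53*. They are *Tigar*, *Gls2*, *Sco2*, *Slc7a11*, *Sat1*, *Pank1*, *Lpin1*, *Acad11*, *Cpt1c* and *Aldh4a1*. They were picked by name as p53 targets, with earlier results of these data known. They are 10 of the 54167 genes in the table, each has 1 row, and all 10 were among the 15117 genes that reached 1 TPM (transcript abundance per length, scaled to a common total in each tumor) in at least 3 tumors and were tested. The tumors came from male C57BL/6J mice that were 8 weeks old at the start. All mice carried *Trp53* alleles flanked by loxP sites, and all were given 10 mg/kg azoxymethane (AOM, a carcinogen) and repeated 7-day courses of 2.5% dextran sulfate sodium (DSS, which injures and inflames the colon). *Trp53fl/fl* mice had no further allele, while *VP* mice also carried *Pvillin-Cre*, which deletes *Trp53* where the villin promoter is active, in intestinal epithelium. Fibroblasts, immune cells and other cells of a *VP* tumor therefore keep *Trp53*. Tumors were cut out on day 98 and bulk poly(A) RNA of 3 tumors per genotype was sequenced. In bulk tissue, fewer cells of a type and less RNA per cell cannot be told apart.

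p53 is a transcription factor best known for stopping the cell cycle and inducing apoptosis after DNA damage. It also controls genes of fuel use: targets that it can induce send glucose toward the pentose phosphate pathway, glutamine and proline toward glutamate, electrons toward oxygen, and fatty acids toward oxidation. *Slc7a11* is the exception among the 10 genes, since p53 is known to repress it, which limits cystine uptake and favors ferroptosis, a cell death by lipid peroxidation.

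*Trp53* RNA measured 125, 99.3 and 147 TPM with the gene intact (*Trp53fl/fl*) against 38.5, 32.8 and 27.8 TPM after its deletion (*VP*). Its log2 fold change was -1.87 (adjusted p = 0.0207 by limma), in the direction of the labels. The remaining *Trp53* RNA was 0.267 of the *Trp53fl/fl* mean. Summed epithelial markers (12 genes) spanned 10628 to 10954 TPM in *Trp53fl/fl* and 12069 to 13063 TPM in *VP* tumors, and summed neutrophil markers (12 genes) spanned 493 to 1109 and 1610 to 2674 TPM. Thus both were higher in every *VP* tumor than in any *Trp53fl/fl* tumor, while the sums of the other 10 marker lists overlapped. The part of either in the values below was not tested. When each tumor was centred on the epithelial markers instead of on its total, the median over the 15117 genes moved from -0.07 to -0.25 (log2), and this shift, equal for all genes, put all 10 metabolic targets below 0.

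None of the 10 genes passed the test between genotypes (limma adjusted p between 0.341 and 0.973). Of all genes tested, 0.165% passed. A single metabolic target, *Slc7a11*, had an unadjusted p under 0.05, against 12.5% of all genes tested. In *VP* tumors 7 of the 10 were below and 3 above their level in *Trp53fl/fl* tumors on the log2 scale, where 60.8% of all genes tested were below 0. Their median log2 fold change was -0.12, and that of the whole tested table was -0.07. For 8 of the 10 genes the genotypes overlapped. The other 2, *Slc7a11* and *Pank1*, were lower in each *VP* tumor than in any *Trp53fl/fl* tumor, against 13.3% of all genes. These shares are near the background, so they set the 10 genes apart from other genes in neither direction. All 95% intervals of the 10 genes lay between -0.91 and 0.68, while that of *Trp53* ran from -2.29 to -1.44. A nearer measure is -0.52, the median of p53 targets outside metabolism given below. It lay inside the intervals of *Slc7a11*, *Cpt1c*, *Acad11* and *Aldh4a1* and outside the others. This split rests on a single value of that median, which ranged from -0.70 to -0.40 under the alternatives. Of these same intervals, those of *Pank1*, *Lpin1* and *Sco2* also hold -0.40, and only that of *Slc7a11* holds -0.70.

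**Figure D1:**
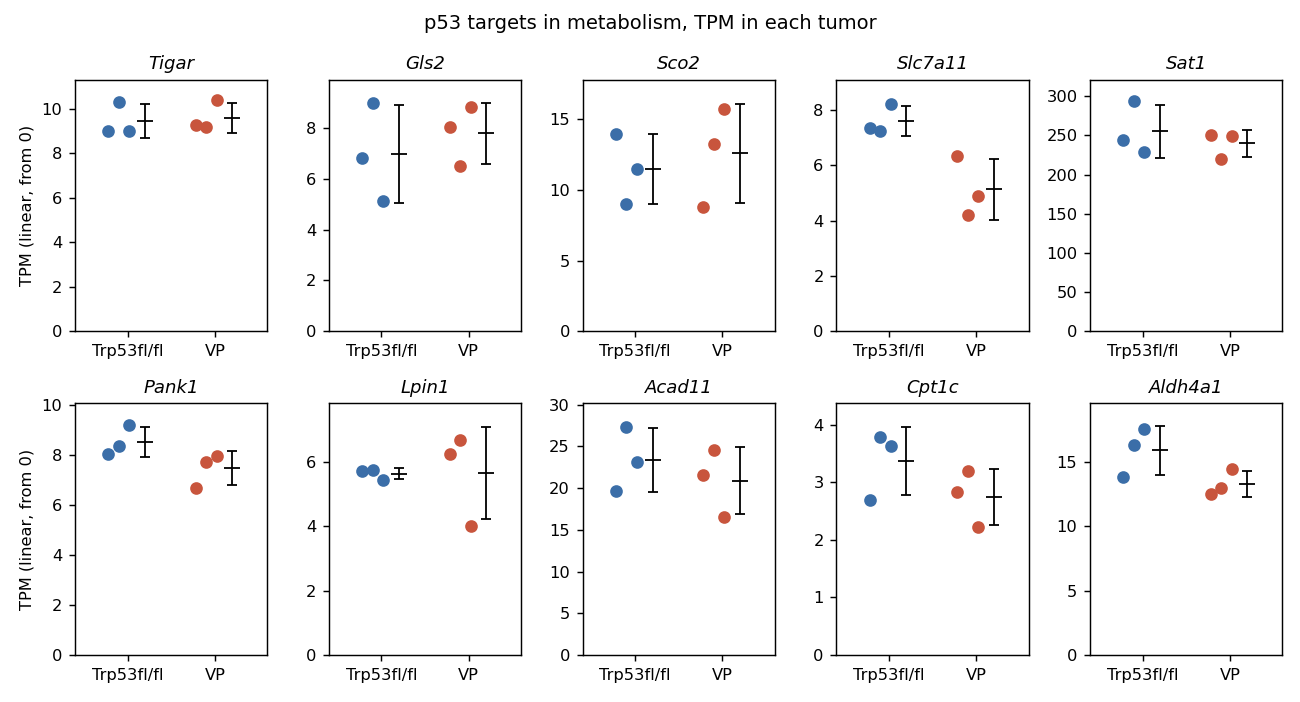
TPM of the 10 metabolic p53 targets in each tumor, 1 panel per gene with its own axis from 0; points are tumors (3 per genotype), bars the mean and SD. *Slc7a11* and *Pank1* are the genes whose genotypes do not overlap.

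The genes differed far more from each other than between genotypes. *Sat1* was the most abundant, from 220 to 294 TPM over the 6 tumors, followed by *Acad11*, *Aldh4a1*, *Sco2*, *Tigar*, *Pank1*, *Gls2*, *Slc7a11*, *Lpin1* and *Cpt1c* in the order of their mean TPM, a scale per transcript length. *Cpt1c* was the lowest, from 2.23 to 3.79 TPM. Of the 9 neighbouring pairs in this order, the ranges over tumors were separate only between *Sat1* and *Acad11* and between *Lpin1* and *Cpt1c*. The middle of the order is therefore loose: *Pank1* was above *Gls2* in 3 of 6 tumors.

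*Slc7a11* (chr3:49892526-50443614, minus strand, GRCm38) encodes xCT, the light chain of the cystine and glutamate exchanger. It was at 7.36, 7.25 and 8.22 TPM in *Trp53fl/fl* and at 6.34, 4.19 and 4.88 TPM in *VP* tumors. Every *VP* tumor was below every *Trp53fl/fl* tumor, with the closest *VP* value in replicate 1. The means were 7.61 ± 0.531 and 5.14 ± 1.10 TPM (SD, n = 3 each), so the *VP* mean was 0.675 of the other. On the log2(TPM + 1) scale the difference was -0.50 (SE 0.17, 95% interval -0.91 to -0.10), the largest of the 10, with an unadjusted limma p of 0.022 and an adjusted p of 0.341. An exact two-sided permutation test gave 0.1, the smallest p that 3 against 3 tumors allow. The direction is down in tumors without epithelial *Trp53*, for a gene that p53 is known to repress.

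The 250 bases before the *Slc7a11* start are shown because this gene had the largest difference and because they hold an uncommon pair of motifs. The capitals mark 2 copies of the amino acid response element (searched as TGATGNAA on both strands), the motif by which ATF4 is known to act on amino acid transporters. The window is chr3:50443614-50443863, minus strand, from RefSeq on GRCm38.p6.
Slc7a11 window: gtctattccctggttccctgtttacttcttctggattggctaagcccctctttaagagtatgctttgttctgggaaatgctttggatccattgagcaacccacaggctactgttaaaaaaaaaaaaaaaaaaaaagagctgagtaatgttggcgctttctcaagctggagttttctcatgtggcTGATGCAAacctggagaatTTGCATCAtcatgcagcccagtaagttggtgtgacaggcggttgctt
The first copy lies 66 to 59 bases before the start on the strand of the gene, the second 47 to 40 bases before it on the other strand, with 11 bases between them. Of 32851 promoter windows of the same length, 3.45% held the motif at least once and 0.0396% (13 windows) held it 2 or more times. The antioxidant response element, searched as TGACNNNGC on both strands, was found in 10.2% of all windows. None of the 10 windows found for 9 of the genes held it. Only exact matches to these letters were counted, so a variant of the element would be missed. The *Slc7a11* window holds gctgagtaa, which on the other strand differs from the searched letters at a single base. A match is a description of letters, not of binding.

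No partner of *Slc7a11* passed the test. The list of cystine, glutathione and ferroptosis genes holds 20 others, of which 0 passed and 1 had an unadjusted p under 0.05, 10 were above and 10 below 0, and the median log2 fold change was 0.01. Its ends were *Tfrc*, the transferrin receptor that brings in iron, at 0.79 (adjusted p = 0.394), and *Alox15*, a lipoxygenase, at -0.60 (adjusted p = 0.784). Among the light chains *Slc7a5* to *Slc7a11*, which pair with the heavy chain *Slc3a2* or a related one, *Slc7a11* made up 5.61%, 5.80% and 6.25% of the summed TPM in *Trp53fl/fl* and 4.76%, 3.57% and 3.70% in *VP* tumors. The shares did not overlap. The means were 5.89 ± 0.329% and 4.01 ± 0.654% (SD, n = 3; exact permutation p = 0.1), and a share within a tumor does not depend on how the tumor is scaled. *Slc7a10* was listed at 0 in every tumor.

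*Tigar* (chr6:127085116-127109557, minus strand) encodes a phosphatase that lowers fructose bisphosphate, the activator of phosphofructokinase, and it is known for its part in regrowth of the intestinal crypt. It was at 8.98, 10.3 and 8.99 TPM in *Trp53fl/fl* and at 9.24, 9.15 and 10.4 TPM in *VP* tumors. The groups covered the same range. The log2 fold change was 0.02 (95% interval -0.29 to 0.33, adjusted p = 0.955). The interval leaves out a change of the size seen in *Trp53*, but that is the deleted gene itself and sets no size for its targets. The kinases that make the same fructose bisphosphate, *Pfkfb1* to *Pfkfb4*, gave a different picture as a sum. *Tigar* was 21.2%, 22.9% and 21.3% of the summed TPM of the 5 genes in *Trp53fl/fl* tumors and 19.3%, 18.8% and 19.0% in *VP* tumors. These shares did not overlap (exact permutation p = 0.1), beside *Pfkfb3* at 15.6 ± 1.32 and 20.6 ± 3.28 TPM and *Pfkfb4* at 10.3 ± 0.705 and 13.8 ± 1.24 TPM (SD, n = 3 each), neither of which passed the adjustment (adjusted p = 0.381 and 0.331). Of 16 genes of fructose bisphosphate and the pentose phosphate pathway, 0 passed (2 at an unadjusted p under 0.05), 7 were above and 9 below 0, and the lowest was *Rpe*, an epimerase of the pathway, at -0.49 (adjusted p = 0.408).

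*Gls2* (chr10:128194457-128210004, plus strand) encodes the glutaminase that p53 can induce, which turns glutamine into glutamate in mitochondria. Its level was 6.82, 8.97 and 5.12 TPM in *Trp53fl/fl* and 8.05, 6.49 and 8.82 TPM in *VP* tumors. Both the highest and the lowest tumor were *Trp53fl/fl*. The log2 fold change was 0.16 (95% interval -0.34 to 0.66, adjusted p = 0.769). Of 10 genes of glutamine and glutamate, 0 passed (1 at an unadjusted p under 0.05), with *Gpt2*, a transaminase, at -0.35 (adjusted p = 0.53) and *Got1*, another, at 0.24 (adjusted p = 0.52).

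*Aldh4a1* (chr4:139622866-139649690, plus strand) encodes the mitochondrial enzyme that completes the conversion of proline to glutamate. It was at 13.8, 16.3 and 17.6 TPM in *Trp53fl/fl* and at 12.5, 12.9 and 14.4 TPM in *VP* tumors. The 2 lowest tumors were *VP*, but the third *VP* tumor lay above the lowest *Trp53fl/fl* tumor. The log2 fold change was -0.24 (95% interval -0.56 to 0.09, adjusted p = 0.498), and 32.5% of the exon bases are also annotated to *Gm21969*, listed at 0. Against *Prodh*, which begins proline breakdown, its share spanned 38.6% to 53.7% and 32.1% to 55.7%, so the groups overlapped, and *Prodh2* was listed at 0 in every tumor. Of 10 tested proline genes 0 passed (2 at an unadjusted p under 0.05). They ran from *Pycr1*, which makes proline, at -0.52 (adjusted p = 0.317) to *P4ha2*, a collagen prolyl hydroxylase, at 0.44 (adjusted p = 0.381).

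*Sco2* (chr15:89371637-89373846, minus strand) encodes a copper chaperone needed to assemble cytochrome oxidase. It was at 13.9, 8.97 and 11.5 TPM in *Trp53fl/fl* and at 8.75, 13.3 and 15.7 TPM in *VP* tumors. The groups overlapped over most of their range, and this was the widest spread within a genotype (a coefficient of variation of 28.1% in *VP* tumors). The log2 fold change was 0.11 (95% interval -0.46 to 0.68, adjusted p = 0.865). Its value is uncertain for another reason: 66.2% of its exon bases are shared with *Ncaph2* on the opposite strand, which stood at 57.3 TPM, and 68.3% with *Tymp* on the same strand, at 2.83 TPM. Whether the reads were counted by strand is not given in the sources used here. Its share of the sum with *Sco1* overlapped between genotypes (46.4 ± 4.52% and 50.4 ± 8.77%, SD, n = 3 each, exact permutation p = 0.6). Of 17 cytochrome oxidase assembly factors 0 passed (1 at an unadjusted p under 0.05), from *Cox11*, another copper chaperone, at -0.36 (adjusted p = 0.482) to *Surf1* at 0.28 (adjusted p = 0.392).

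*Sat1* (chrX:155213132-155216449, minus strand) encodes the acetyltransferase that starts the breakdown of spermine and spermidine. The 6 tumors held 244, 294 and 229 TPM (*Trp53fl/fl*) and 250, 220 and 249 TPM (*VP*). The *VP* values lay among or just below the others, and the log2 fold change was -0.09 (95% interval -0.38 to 0.21, adjusted p = 0.791). *Sat1* supplied nearly all of the RNA of the pair with *Sat2*: 99.4%, 99.3% and 99.1% in *Trp53fl/fl* and 98.3%, 98.8% and 98.4% in *VP* tumors. The small difference between these shares (exact permutation p = 0.1) stood beside *Sat2*, at 1.83 ± 0.333 and 3.77 ± 0.915 TPM (SD, n = 3 each). That difference was 0.74 on the log2 scale (adjusted p = 0.303). *Sat2* was also the highest of 15 polyamine genes, of which 0 passed and 3, all higher in *VP* tumors, had an unadjusted p under 0.05. The lowest was *Amd1*, which supplies the building block for spermidine, at -0.33 (adjusted p = 0.406).

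*Pank1* (chr19:34806940-34879455, minus strand) encodes a pantothenate kinase, the enzyme class that sets the rate of coenzyme A synthesis. It was at 8.02, 8.33 and 9.18 TPM in *Trp53fl/fl* and at 6.68, 7.72 and 7.96 TPM in *VP* tumors. All *VP* tumors were lower, the highest of them close to the lowest *Trp53fl/fl* tumor. The means were 8.51 ± 0.601 and 7.45 ± 0.680 TPM (SD, n = 3 each), and the log2 fold change of -0.17 (SE 0.14, 95% interval -0.49 to 0.15) did not pass (adjusted p = 0.614, exact permutation p = 0.1). Its share among *Pank1* to *Pank3* overlapped (15.4 ± 3.41% and 14.7 ± 2.17%, exact permutation p = 0.8), with *Pank2* at -0.14 and *Pank3* at -0.11 on the log2 scale. Of 8 other coenzyme A genes tested, 6 were below 0 and 0 passed, also 0 at an unadjusted p under 0.05, and *Slc5a6*, a transporter of pantothenate, was highest at 0.28 (adjusted p = 0.473).

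Both RefSeq windows before *Pank1* starts are shown because it is the other gene without overlap and is counted as a p53-induced target. The capitals mark CATG, the center of the most common p53 sequence. Window 1 is chr19:34879456-34879705 and window 2 is chr19:34877918-34878167, both on the minus strand of GRCm38.p6.
Pank1 window 1: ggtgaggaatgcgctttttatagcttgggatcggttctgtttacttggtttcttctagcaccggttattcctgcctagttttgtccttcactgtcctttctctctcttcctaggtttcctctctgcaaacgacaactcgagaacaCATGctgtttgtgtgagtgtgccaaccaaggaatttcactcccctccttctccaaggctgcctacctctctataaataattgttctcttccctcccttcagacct
Pank1 window 2: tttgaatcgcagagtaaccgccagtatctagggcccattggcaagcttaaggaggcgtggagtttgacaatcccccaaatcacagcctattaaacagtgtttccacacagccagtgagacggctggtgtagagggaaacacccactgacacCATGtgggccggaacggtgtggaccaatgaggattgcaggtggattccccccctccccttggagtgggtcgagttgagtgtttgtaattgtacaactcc
Each has 1 CATG, as 53.9% of all windows have at least 1, and 8 of the 10 windows found for 9 of the genes hold it. A 10-base p53 half-site was searched as RRRCWWGYYY (R is A or G, W is A or T, Y is C or T), which allows CATG and other centers. It occurred in 0 of these 10 windows and in 7.13% of all windows. Response elements of p53 also lie in introns and farther upstream, which these windows do not cover.

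*Lpin1* (chr12:16535669-16610966, minus strand) encodes lipin, a phosphatidate phosphatase that also acts in the nucleus with *Ppargc1a* and *Ppara* on genes of fatty acid oxidation. It was at 5.71, 5.76 and 5.45 TPM in *Trp53fl/fl* and at 6.26, 6.69 and 4.02 TPM in *VP* tumors. The *VP* tumors lay on both sides of the narrow *Trp53fl/fl* range, so the means were nearly equal (5.64 ± 0.166 and 5.66 ± 1.43 TPM, SD, n = 3 each). The log2 fold change was -0.02 (95% interval -0.48 to 0.44, adjusted p = 0.973), and the share among the 3 lipins overlapped (exact permutation p = 0.7). Of 14 glycerolipid genes 0 passed (1 at an unadjusted p under 0.05), with *Agpat4*, an acyltransferase, at 0.49 (adjusted p = 0.292) and *Ppara* at -0.46 (adjusted p = 0.728).

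*Acad11* (chr9:104063377-104127725, plus strand) encodes an acyl-CoA dehydrogenase for fatty acid oxidation. It was at 19.7, 27.4 and 23.1 TPM in *Trp53fl/fl* and at 21.6, 24.6 and 16.6 TPM in *VP* tumors. Only *VP* replicate 3 lay below the *Trp53fl/fl* range, and the log2 fold change was -0.16 (95% interval -0.59 to 0.27, adjusted p = 0.729). Against its near relatives *Acad10* and *Acad12*, however, *Acad11* held 73.5%, 74.2% and 75.4% of the sum in *Trp53fl/fl* and 66.1%, 68.3% and 62.2% in *VP* tumors. The difference was -8.83 percentage points, without overlap (74.4 ± 0.918% and 65.5 ± 3.13%, SD, n = 3, exact permutation p = 0.1). *Acad12* was at 2.73 ± 0.372 and 4.21 ± 0.226 TPM (adjusted p = 0.334) and *Acad10* at 5.32 ± 1.15 and 6.64 ± 0.459 TPM (adjusted p = 0.513).

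*Cpt1c* (chr7:44959372-44974851, minus strand) encodes the brain form of carnitine palmitoyltransferase, whose relatives bring fatty acids to mitochondria. It was at 2.70, 3.79 and 3.63 TPM in *Trp53fl/fl* and at 2.83, 3.19 and 2.23 TPM in *VP* tumors. The groups overlapped, and the log2 fold change was -0.22 (95% interval -0.67 to 0.23, adjusted p = 0.637). Its share of the 3 *Cpt1* genes was 6.80%, 8.32% and 7.35% in *Trp53fl/fl* and 3.92%, 6.50% and 5.06% in *VP* tumors, again without overlap (exact permutation p = 0.1). The main form *Cpt1a*, at 41.2 ± 4.40 and 52.1 ± 14.8 TPM (SD, n = 3 each, adjusted p = 0.543), made up most of that sum. Of 15 tested genes of the carnitine shuttle and the other acyl-CoA dehydrogenases 0 passed (1 at an unadjusted p under 0.05), from *Acad8* at -0.22 (adjusted p = 0.538) to *Acad12* at 0.48.

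**Figure D2:**
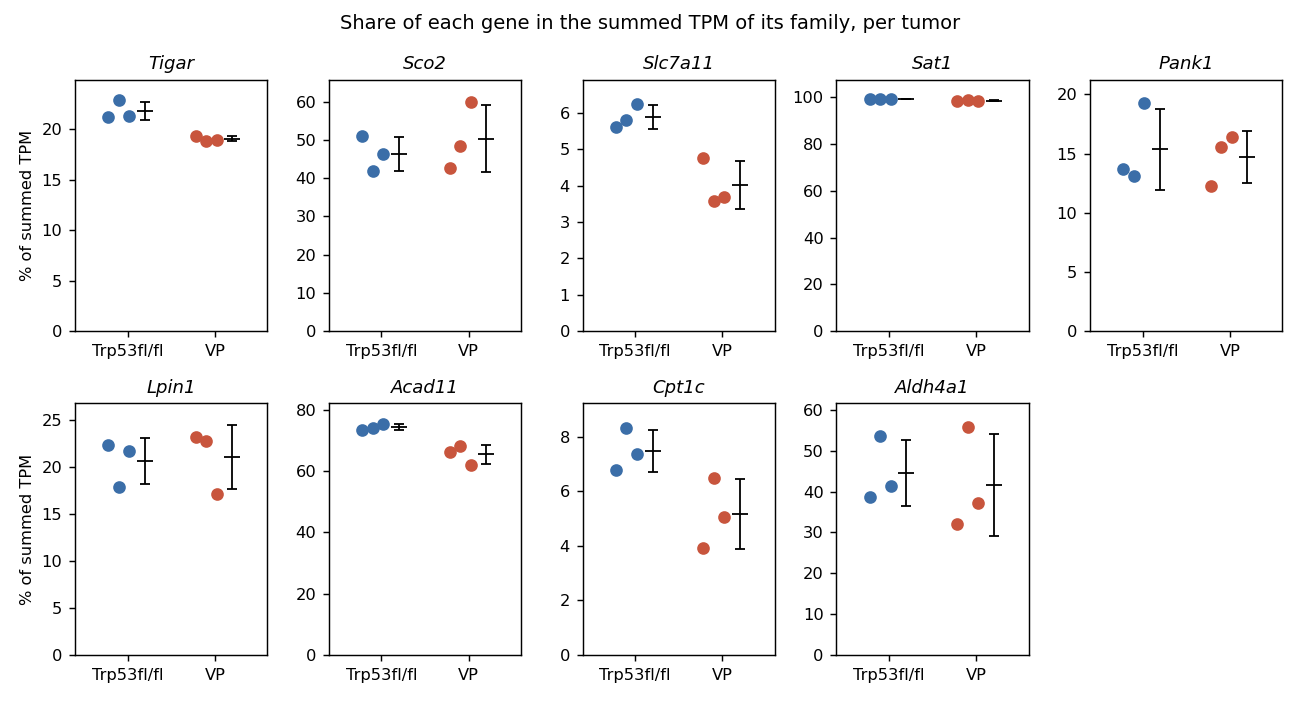
Share of 9 of the genes in the summed TPM of their families, in percent on axes from 0, for each tumor (points) with the mean and SD (bars), n = 3 per genotype. For *Tigar* and *Aldh4a1* the family is a set of enzymes of the same pathway, not of close relatives. *Tigar*, *Slc7a11*, *Sat1*, *Acad11* and *Cpt1c* do not overlap between genotypes, and all 5 are lower in *VP* tumors.

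Across the 9 families compared (for *Tigar* and *Aldh4a1*, pathway enzymes), 5 shares did not overlap between genotypes. All 5 were lower in *VP* tumors, each with an exact permutation p of 0.1. Among single genes of the table, 19.3% did not overlap in either direction. No such figure was computed for shares, so the count of shares was not read against a background. A share also falls when the other genes of its sum rise. On the log2 scale *Sat1* itself was at -0.09, and *Sat2*, low at 1.45 to 4.44 TPM, was at 0.74.

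**Figure D3:**
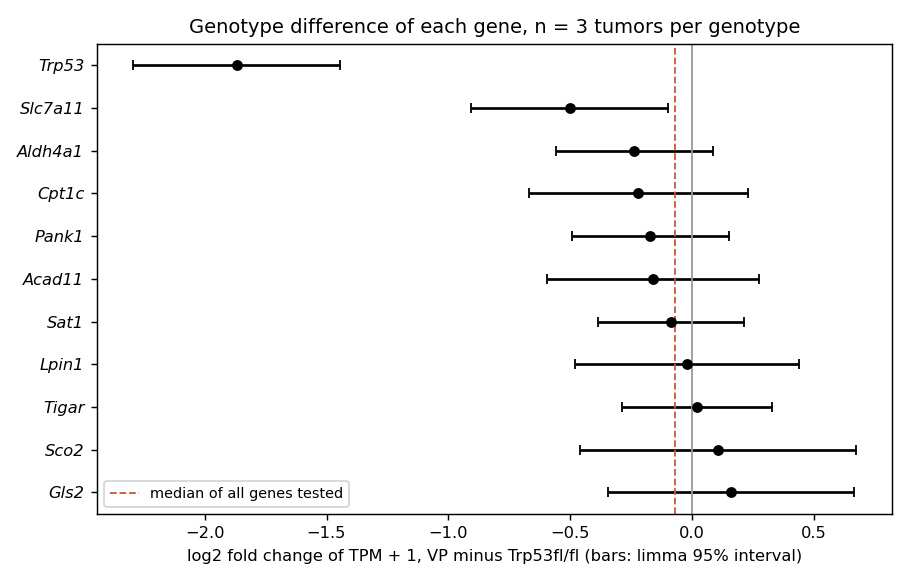
Log2 fold change of TPM + 1, *VP* minus *Trp53fl/fl*, with limma 95% intervals, for *Trp53* and the 10 genes (n = 3 tumors per genotype). The interval of *Slc7a11* alone among the 10 excludes 0, and none of the 10 reaches the interval of *Trp53*.

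No gene of the pathways around the 10 genes passed the test. The 9 partner lists held 125 tested genes, of which 0 passed by limma, against 0.165% of all genes, and 12 (9.60%) had an unadjusted p under 0.05, against 12.5% of all genes. The other 2 lists hold further p53 targets, with 54 tested genes, and of these 2 (3.70%) passed, both lower in *VP* tumors. At an unadjusted p under 0.05 stood 22 of the 54 (40.7%). All these lists were chosen with earlier results of these data known, so their shares are a description. *Ephx1*, a detoxifying epoxide hydrolase in the list of 29 other metabolic genes linked to p53, fell from 35.1 ± 5.91 to 8.27 ± 0.980 TPM (SD, n = 3 each, log2 fold change -1.96, adjusted p = 0.00804). That list had a median of -0.05, with 18 genes below and 11 above 0. Its highest gene was *Slc2a4*, an insulin-responsive glucose transporter, at 0.89 (adjusted p = 0.405). Some of its members are described in the paper as repressed by p53. The list thus mixes known directions, and its median cannot show an absence of change. At an unadjusted limma p under 0.05, 4 of its members rose and 3 fell, *Ephx1* among the latter. *Phlda3*, an inhibitor of Akt in the list of 25 p53 targets outside metabolism, fell from 48.2 ± 14.8 to 12.9 ± 0.929 TPM (SD, n = 3 each, log2 fold change -1.78, adjusted p = 0.0447). No gene of the 11 lists passed without *Trp53fl/fl* replicate 1 or without *VP* replicate 1.

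The p53 targets outside metabolism, which include *Mdm2*, *Cdkn1a* and *Bax*, were chosen as established targets, with earlier results of these data known. They served to set the 10 metabolic genes beside the rest of the p53 program. Their median log2 fold change was -0.52, with 22 of 25 below 0 and 15 lower at an unadjusted p under 0.05, and *Fas*, a death receptor, was the highest at 0.22 (adjusted p = 0.548). Without *Slc7a11*, the 9 metabolic genes that p53 is known to induce had a median of -0.09. The 9 lists of pathway partners had medians between -0.11 and 0.07. These are counts and medians of chosen lists, without a test between them. Under the alternatives the median of the targets outside metabolism stayed between -0.70 and -0.40 and that of the 10 genes between -0.30 and -0.03.

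**Figure D4:**
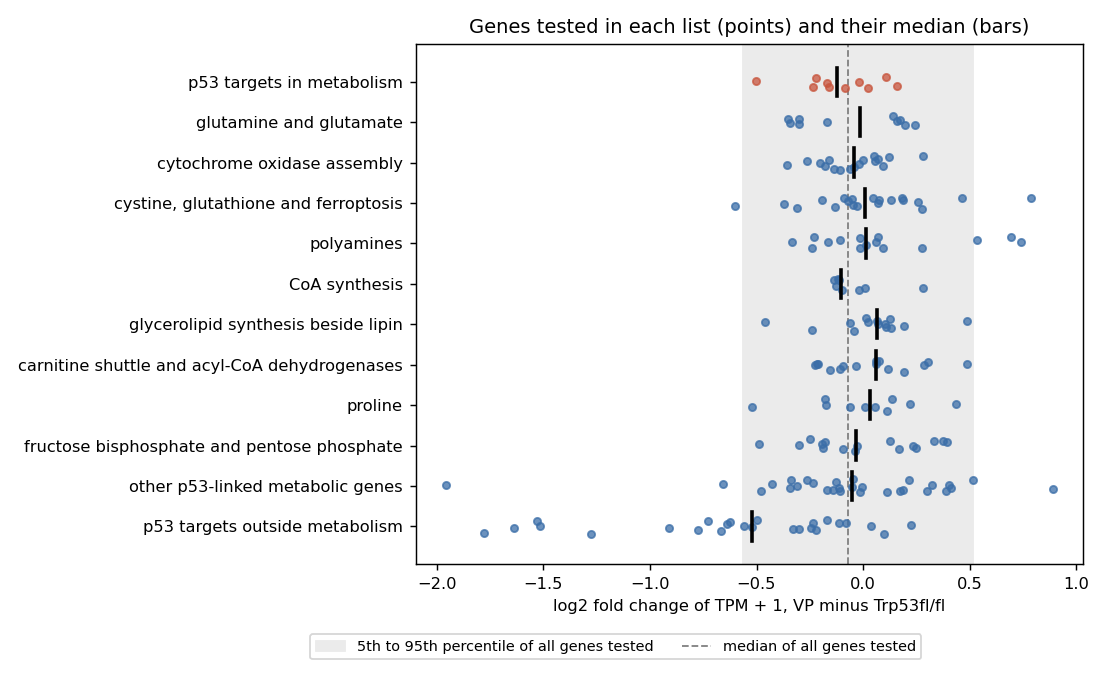
Log2 fold change of TPM + 1, *VP* minus *Trp53fl/fl*, for each tested gene (points) of the 10 metabolic targets and of 11 other lists, with the list median (bar), the median of all genes tested (dashed line) and their 5th to 95th percentile (grey, -0.56 to 0.52). The 10 genes and their partner lists center near the median of all genes, and the targets outside metabolism lie to the left.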

How the data were processed

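RNA-seq of 6 AOM/DSS tumors was used, 3 per genotype, each assigned through the tumor code in its label. The authors deposited TPM per gene with 2 decimals, that is, values divided by transcript length and scaled to a common total (columns sum to between 999964 and 1000067). The submitters' processing notes name HISAT2, StringTie and mm9 without versions or roles, and the annotation and strand setting are not given in the sources used here. TPM keep no read counts, so depth and counting error are unknown, and each value depends on all others of its tumor.

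Genes were kept that reached 1 TPM in 3 or more tumors and were tested on log2(TPM + 1), a scale that understates changes of low genes, with limma 3.58.1 in R 4.3.3 (empirical Bayes with trend, Benjamini-Hochberg adjustment over 15117 genes, threshold 0.05), after a check on simulated data. Fold changes are *VP* minus *Trp53fl/fl*, and intervals are limma's 95% intervals. Shares within families were compared with exact two-sided permutation tests over the 20 splits of the tumors (Python 3.11.15, numpy 2.4.6, pandas 2.3.3, scipy 1.17.1, matplotlib 3.10.9). The replicates are tumors that the labels number 1 to 3. p-values measure only the spread between these tumors.

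The 10 genes, the pathway and family lists and the marker lists were chosen with earlier results of these data known. Named are the 10 genes, *Trp53*, family genes behind a share and, of each list, the genes that passed or otherwise the gene farthest from 0 in each direction. *Mdm2*, *Cdkn1a* and *Bax* are named as list members only. Coordinates come from GENCODE M21 (GRCm38) by gene ID (52093 of 54167 IDs, 96.17%), not from the build of the notes. Promoter windows come from RefSeq on GRCm38.p6, with 10 windows for 9 of the 10 genes. The family share of *Gls2* is not reported here. Alternatives were a pseudocount of 0.1, no filter, a filter on a mean of 5 TPM, quantile normalization, rescaling by the median of ratios, centring on 12 epithelial markers, the replicate number as a block, no trend, array quality weights, a log2 ratio in place of the share, and each tumor left out in turn.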

Additional observations from a re-analysis of the deposited data

How the results depend on the processing

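No alternative brought any of the 10 genes past the threshold (adjusted p between 0.0808 and 0.994 over 149 values). *Slc7a11*, *Pank1*, *Cpt1c* and *Aldh4a1* kept their sign in all of them, and *Slc7a11* ranged from -0.68 to -0.39. In all, 15 values changed sign. *Lpin1* was 0.060 with quantile normalization and 0.046 with median-of-ratios rescaling. With centring on epithelial markers *Tigar* was -0.16, *Gls2* -0.021 and *Sco2* -0.073. With array quality weights *Sco2* was -0.10 and *Acad11* 0.052. With each tumor left out in turn *Tigar* ranged from -0.030 to 0.082, *Gls2* from -0.016 to 0.34, *Sco2* from -0.060 to 0.33, *Sat1* from -0.16 to 0.018 and *Lpin1* from -0.14 to 0.17. The cause was not tested.

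The 25 genes that passed in the whole table became 7 without a filter, 44 with epithelial centring and 323 with array quality weights, which weighted *Trp53fl/fl* replicate 1 at 7.29 and the other tumors at 0.444 to 1.04. They were 6 to 28 with each tumor left out (8 and 10 without *Trp53fl/fl* replicates 1 and 3, 9 and 6 without *VP* replicates 1 and 2). Of the genes that passed, 48% were higher in *VP*, against 60% with median-of-ratios rescaling, 34.1% with epithelial centring and 58.8% to 75% with each tumor left out (75% without *Trp53fl/fl* replicate 1). The median log2 fold change of the 10 genes, -0.12, became -0.046 with median-of-ratios rescaling, -0.30 with epithelial centring and -0.031 with array quality weights, and was -0.17 to -0.044 with each tumor left out (-0.044 without *Trp53fl/fl* replicate 2). The 2 list genes that passed became 1 without a filter, with median-of-ratios rescaling and without trend, 10 with array quality weights, and 0 to 2 with each tumor left out. Of 165 list medians under alternatives, 33 moved. Epithelial centring shifts all genes equally, so its sign changes follow from the scaling alone.

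With the replicate number as a block, 10 genes of the table (70% higher in *VP*), 1 list gene and 0 of the 10 genes passed. The labels do not say whether the numbers pair the tumors. The deviations of same-numbered tumors correlated at 0.0185, -0.052 and 0.0175, and those of differently numbered tumors between -0.108 and 0.0952. These values show no sign of pairing but cannot settle it. TPM keep no depth, so its limit on these values is unknown.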

Other observations

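*Slc7a11* is also known as a target of ATF4, a transcription factor of amino acid shortage, and 12 other genes of the lists with that reputation were looked up after their values were seen. In *VP* tumors 7 were below and 5 above 0 on the log2 scale, with a median of -0.04. By limma 0 passed the adjustment and 3 had an unadjusted p under 0.05, where 12.5% of all genes tested did. The same 3 were lower in every *VP* tumor than in any *Trp53fl/fl* tumor, as were 13.3% of all genes tested. Since the genes were looked up with their values known, these counts are a description. *Pycr1*, which makes proline, was at 83.2, 82.5 and 86.2 TPM in *Trp53fl/fl* and at 65.8, 45.4 and 65.7 TPM in *VP* tumors. *Slc38a2*, a glutamine transporter, was at 80.6, 78.7 and 74.2 TPM and at 58.1, 64.9 and 66.0 TPM. *Sesn2*, a sestrin that restrains mTORC1 and is a p53 target as well, was at 10.7, 10.6 and 10.9 TPM and at 7.16, 8.70 and 7.41 TPM. The ATF4 target best known in amino acid shortage, *Asns*, overlapped between genotypes, at 43.7, 33.4 and 48.6 TPM and at 50.0, 54.9 and 39.4 TPM. Of the 10 of these genes with a RefSeq window, *Asns*, *Chac1* and *Pycr1* held the amino acid response element 1 time each.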
